A study of Mus musculus with 8 samples.

Results

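The myosin chains of heart muscle were followed in whole mouse embryonic hearts. The set holds 8 genes of the 24385 features in the deposited table and was taken by gene symbol: the regulatory light chains *Myl7*, *Myl2* and *Myl9*, the essential light chains *Myl4*, *Myl3* and *Myl1*, and the heavy chains *Myh6* and *Myh7*. RNA was sequenced from hearts at embryonic day 8.5 (E8.5) and 9.5 (E9.5), in 4 groups of 2 libraries each, from C57BL/6 embryos. The cKO embryos were *Mesp1* Cre/+ and *Dgcr8* loxP/loxP (labelled Mesp1Cre/+; Dgcr8-/-), and the controls, labelled wild type (WT), were *Dgcr8* loxP/loxP without a Cre allele. All groups also carried 1 copy of the membrane reporter *Rosa26* mT/mG, and the genotypes also differed by the Cre allele itself. *Mesp1* Cre acts in early mesoderm and its progeny, so cells of other origin keep *Dgcr8*, whose product binds primary microRNA transcripts and helps the nuclease Drosha to cut out their hairpins. Whether a library held 1 heart or several was not given in the sources used here. The study names the 2 libraries of a group as biological replicates.

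Myosin II is the motor of the thick filament. It is built of a pair of heavy chains that hydrolyse ATP and pull on actin, each carrying an essential light chain that stiffens the lever arm and a regulatory light chain whose phosphorylation tunes contraction. In the mouse, *Myl7* and *Myl4* are the atrial light chains, and both are made throughout the early heart tube before they are confined to the atria. *Myl2* and *Myl3* are the ventricular light chains, *Myh6* encodes the alpha heavy chain, and *Myh7* encodes the beta heavy chain of the embryonic ventricle. The other two are not chamber chains: *Myl9* is the regulatory light chain of smooth muscle and non-muscle cells, and *Myl1* is the essential light chain of fast skeletal muscle. Whole hearts were sequenced, so the values do not place a transcript in a chamber.

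Values are FPKM, fragments per kilobase of transcript scaled to the mapped fragments of a library, so levels can be set side by side between genes. All 8 genes passed the filter of a mean of at least 1 FPKM, as did 10018 features in all. Changes are differences of mean log2(FPKM + 1), tested with limma in 1 model of the 4 groups. In the values per library below, the pair of a group is given as replicate 1 and replicate 2. A gene was called at a Benjamini-Hochberg adjusted p under 0.05 over all tested genes and a change of at least 1.5-fold.

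Over the libraries, relative depth lay between 1 and 1.45 and summed FPKM between 884018 and 1944600. The share of FPKM in loci under 300 bp was 15.7% to 22.4% in the 4 WT libraries and 18.3% in E9.5 cKO replicate 2, but 38.6% and 50.5% in the E8.5 cKO pair and 54.5% in E9.5 cKO replicate 1. With every library scaled to a common sum over loci of at least 300 bp, the same members were called in each comparison. *Dgcr8* was lower in both cKO libraries at each stage, by -1.19 at E8.5 (limma adjusted p 0.590) and -0.84 at E9.5 (adjusted p 0.317) on the log2 scale, and was not called. The cardiomyocyte markers *Tnnt2*, *Actc1*, *Tnni1*, *Actn2*, *Ttn*, *Ryr2* and *Nkx2-5* all passed the filter. Among the markers, both E8.5 cKO libraries and E8.5 WT replicate 1 stood apart. E8.5 cKO replicate 2 held 5104 FPKM of *Prl8a2*, a prolactin-family gene of the maternal decidua, against 449 and 1141 in E8.5 WT, 9.95 in E8.5 cKO replicate 1 and at most 5.09 at E9.5. E8.5 cKO replicate 1 was the highest E8.5 library in the summed FPKM of 6 yolk sac endoderm markers (*Afp*, *Apoa1*, *Apob*, *Ttr*, *Trf* and *Rbp4*), 6724 against 743 to 2556 in the other three, and of 6 primitive erythroid markers, 35496 against 7777 to 23812. E8.5 WT replicate 1 was the lowest E8.5 library in both of these sums. It was the highest in the summed FPKM of 6 macrophage and neutrophil markers, 347 against 7.19 to 274 in the other E8.5 libraries.

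*Myl7* was the most abundant transcript of the heart in all 8 libraries, ranking 1 among features with loci of at least 300 bp. Its gene lies on chromosome 11, 5896637 to 5898782 (GRCm38, all positions as in the table and counted from 1). *Myl7* read 12315 and 21768 FPKM in the WT pair and 28668 and 20217 in the cKO pair at E8.5, then 25280 and 22019 in WT and 33663 and 32363 in cKO at E9.5. The E9.5 libraries of each genotype lay above its E8.5 libraries, and the E9.5 cKO libraries were the highest of all.

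*Myl2* (chromosome 5, 122100980 to 122106854) was the member that moved most. *Myl2* read 627 and 1295 FPKM in the WT pair and 1879 and 745 in the cKO pair at E8.5, then 8583 and 15492 in WT and 7081 and 12091 in cKO at E9.5. The lowest E9.5 library held more than 3 times the highest E8.5 library, while the genotypes overlapped at both stages. Across the libraries its rank among features with loci of at least 300 bp ran from 233 to 3. 

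*Myl9* (chromosome 2, 156775464 to 156781657) read 801 and 1138 FPKM in the WT pair and 1549 and 607 in the cKO pair at E8.5, then 2295 and 1949 in WT and 2736 and 3065 in cKO at E9.5. The stages did not overlap, and at E9.5 both cKO libraries lay above both WT libraries. The summed level of *Acta2*, *Tagln*, *Cnn1*, *Myh11*, *Myocd* and *Smtn* was 3535 to 4901 FPKM in WT and 8535 to 9095 FPKM in cKO, with 5 of 6 markers past the filter, none at 0 in all libraries, and the smooth muscle heavy chain *Myh11* between 0.11 and 0.66 FPKM at that stage. The difference in the sum came from *Acta2*, *Tagln* and *Cnn1* (log2 difference 0.94, 1.59 and 2.13, 0 called by limma). *Smtn* read 16.5 and 15.9 FPKM in WT against 14.3 and 11.2 in cKO (-0.33), and *Myocd* overlapped between the genotypes (0.18). Their part in the level of *Myl9* was not tested, and in whole hearts more cells of a type and more RNA per cell cannot be told apart.

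Among the essential light chains, *Myl4* (chromosome 11, 104550663 to 104587219) read 2320 and 3326 FPKM in the WT pair and 4915 and 2948 in the cKO pair at E8.5, then 6751 and 5784 in WT and 10276 and 8610 in cKO at E9.5. As for *Myl7*, the E9.5 cKO libraries were the highest. *Myl3* (chromosome 9, 110763681 to 110769794) read 1042 and 1572 FPKM in the WT pair and 2145 and 866 in the cKO pair at E8.5, then 3434 and 4104 in WT and 4002 and 3414 in cKO at E9.5. The *Myl3* stages did not overlap and its genotypes did.

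*Myl1* (chromosome 1, 66924296 to 66945056) read 322 and 515 FPKM in the WT pair and 566 and 247 in the cKO pair at E8.5, then 941 and 821 in WT and 823 and 1281 in cKO at E9.5. Again the stages separated and the genotypes did not. Of 6 skeletal muscle markers, *Myf5*, *Myog* and *Pax7* were listed at 0 in all 8 libraries, *Myod1* did not exceed 0.042 FPKM and *Ckm* lay between 0.29 and 1.31 FPKM. The list sum, 702 to 1678 FPKM at E8.5, 1163 to 1689 FPKM in WT and 2923 to 3925 FPKM in cKO at the later stage, was carried by *Acta1*, an actin that embryonic heart muscle also makes.

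The heavy chains had lower levels per kilobase than most light chains. *Myh6* (chromosome 14, 54941921 to 54966607) read 246 and 504 FPKM in the WT pair and 404 and 343 in the cKO pair at E8.5, then 916 and 777 in WT and 424 and 567 in cKO at E9.5. The E9.5 WT libraries stood above the other 6. *Myh7* (chromosome 14, 54970688 to 54994549) read 136 and 257 FPKM in the WT pair and 252 and 116 in the cKO pair at E8.5, then 386 and 1337 in WT and 1065 and 1196 in cKO at E9.5. The E9.5 WT libraries of *Myh7* differed from each other more than 3-fold and enclosed both cKO libraries.

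**Figure D1:**
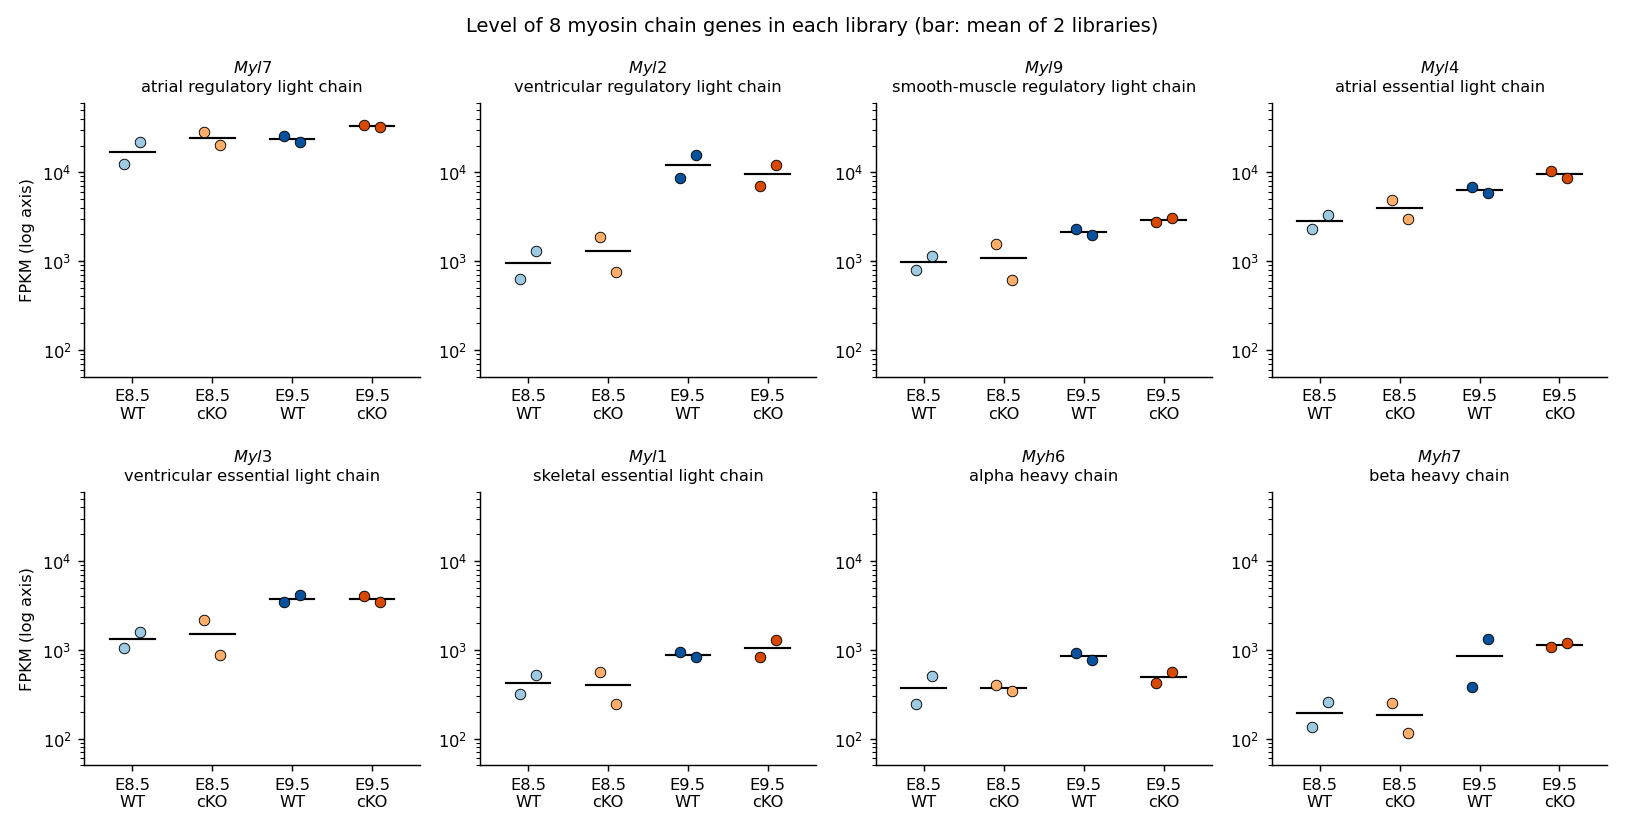
FPKM of each member on a log axis in the 4 groups; points are libraries (replicate 1 left, replicate 2 right) and bars are means of 2 libraries. All 8 genes had both E9.5 libraries above both E8.5 libraries within each genotype, with the widest gap for *Myl2* (627 to 1879 FPKM at E8.5, 7081 to 15492 FPKM at E9.5).

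The order of the levels changed between the stages. In E8.5 WT hearts the order by mean was *Myl7*, *Myl4*, *Myl3*, *Myl9*, *Myl2*, *Myl1*, *Myh6* and *Myh7*, where *Myl3*, *Myl9* and *Myl2* overlapped as neighbours, as did *Myl1*, *Myh6* and *Myh7*. In E8.5 cKO hearts *Myl2* and *Myl9* changed places within their overlap, and *Myh6* and *Myh7* no longer overlapped. In E9.5 WT hearts *Myl2* stood in position 2, with 12038 ± 4886 FPKM (SD, n = 2) after *Myl7* at 23649 ± 2306 FPKM, and neighbours overlapped only among *Myl1*, *Myh7* and *Myh6*. In E9.5 cKO hearts *Myl2* (9586 ± 3543 FPKM) and *Myl4* (9443 ± 1178 FPKM) overlapped, as did *Myh7* and *Myl1*, and *Myh6* came last.

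In shares of the summed FPKM of the 8 genes, *Myl7* fell although its own FPKM was higher at E9.5 in each genotype, since the sum of the others rose more. *Myl7* made up 69.2% to 77.5% of the sum in the E8.5 libraries and 42.1% to 56.0% in the E9.5 libraries, while *Myl2* went from between 2.85% and 4.65% to between 11.8% and 29.6%. The regulatory light chains together varied little, from 72.4% to 82.7% of the sum. The essential light chains held 15.6% to 25.1% and the heavy chains 1.63% to 4.04%. The 8 genes made up 2.39% to 6.90% of all FPKM in loci of at least 300 bp.

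**Figure D2:**
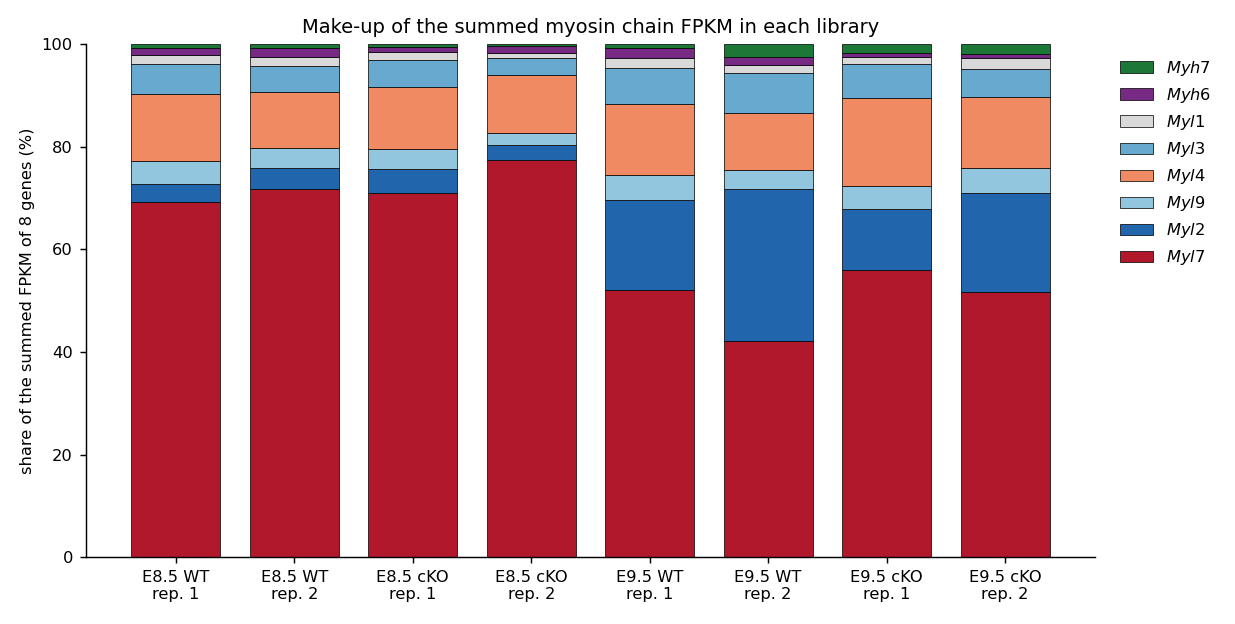
Share of each gene in the summed FPKM of the 8 genes (vertical axis, %), 1 bar per library. The *Myl2* share is at most 4.65% in the E8.5 libraries and at least 11.8% in the E9.5 libraries, and the *Myl7* share is at least 69.2% at E8.5 and at most 56.0% at E9.5.

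The first comparison asked which chains changed between the stages in WT hearts. The ventricular light chain *Myl2* rose most, 12.8-fold (log2 change 3.68, SE 0.55, limma adjusted p 0.011). The beta heavy chain *Myh7* rose by 1.94 (SE 0.62, adjusted p 0.036), *Myl3* by 1.55 (SE 0.42, adjusted p 0.024), *Myh6* by 1.26 (SE 0.37, adjusted p 0.028) and *Myl4* by 1.17 (SE 0.31, adjusted p 0.022). Not called were *Myl9* at 1.15 (adjusted p 0.054), *Myl1* at 1.11 (adjusted p 0.066) and *Myl7* at 0.53 (95% interval -0.17 to 1.22, adjusted p 0.162). Thus 5 of 8 members were called higher and 0 lower, where 1.4% of all tested genes were called higher. All 8 had both E9.5 libraries above both E8.5 libraries, as had 5.43% of tested genes.

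The median log2 change was 1.21 over the members and -0.84 over all tested genes, of which 140 were called higher and 4683 (46.7%) lower. Against the median of all tested genes, *Myl7* in WT changed by 1.36 and *Myl2* by 4.51. The calls rested on single libraries and on the scaling. *Myh7* was at 1.04 without E9.5 WT replicate 2 and 2.83 without E9.5 WT replicate 1, and lost its call also in a fit of the 2 groups alone (adjusted p 0.056). *Myh6* was at 0.74 without E8.5 WT replicate 1 and 1.78 without E8.5 WT replicate 2. Without E8.5 WT replicate 1 or E9.5 WT replicate 1, 0 members were called by limma, where 4 and 10 of the 10018 tested genes were called higher and 28 and 48 lower, so calls were lost across all genes. Without E8.5 WT replicate 2 or E9.5 WT replicate 2 only *Myl2* was, where 16 and 85 tested genes were called higher, while its change stayed between 3.15 and 4.2. Median-ratio scaling called all 8, quantile normalization called 0 (and turned *Myl7* to -0.34), and testing without the filter on low values called *Myl2* alone.

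The same comparison was made in cKO hearts. *Myl2* rose by 2.97 on the log2 scale (7.82-fold, SE 0.55, limma adjusted p 0.016) and *Myh7* by 2.71 (SE 0.62, adjusted p 0.022). *Myl9* rose by 1.58 (adjusted p 0.031), *Myl1* by 1.45 (adjusted p 0.042), *Myl3* by 1.44 (adjusted p 0.039) and *Myl4* by 1.31 (adjusted p 0.023). *Myl7* at 0.46 (adjusted p 0.254) and *Myh6* at 0.40 (adjusted p 0.410) were not called. Hence 6 of 8 members were called higher and 0 lower, against 2.05% of all tested genes called higher, and again 8 of 8 had E9.5 libraries above E8.5 libraries, against 7.05% of tested genes. The members' median was 1.45 and that of all tested genes -0.64, with 28.5% of tested genes called lower.

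With E9.5 cKO replicate 1 or replicate 2 left out 0 members were called by limma, but in each of these fits only 1 of the 10018 tested genes was called higher, so calls were lost across all genes. With all libraries 205 were. Without E8.5 cKO replicate 2, the library high in *Prl8a2*, 117 tested genes were called higher and among the members only *Myl2* was, at 2.30. The sizes moved with the E8.5 cKO pair: without replicate 2 and without replicate 1 of that group, *Myl9* was at 0.90 and 2.25, *Myl1* at 0.86 and 2.05, *Myl3* at 0.78 and 2.09, and *Myl2* reached 3.63 without replicate 1. Without E8.5 WT replicate 1, which changes only the shared estimate of the spread, 3 were called. Quantile normalization called 0, testing without the filter called 1 and a fit of the 2 groups alone called 3.

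Across 9122 tested genes, which are not independent replicates, the change with stage followed transcript GC content, with a Spearman rho of 0.259 in WT and 0.510 in cKO hearts, and so did the difference of E9.5 WT replicate 2 from replicate 1 (-0.627). A correction for GC content per library, chosen after the data were seen, called 7 members in WT and 6 in cKO hearts, all higher at E9.5, where 191 and 199 of 9122 tested genes were called higher. With the replicate block added, 5 and 4 members and 167 and 163 tested genes were.

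The summed level of the cardiomyocyte markers was higher at E9.5, though not each marker was. The summed FPKM of the 7 markers was 10878 to 16968 (WT) and 15664 to 22813 (cKO) at E8.5 and 25641 to 27455 (WT) and 35086 to 37975 (cKO) at E9.5, with none at 0. The cardiac actin gene *Actc1* was called higher in both genotypes (0.98 in WT and 1.03 in cKO, limma adjusted p 0.026 and 0.032), and *Tnnt2*, the cardiac troponin T gene, was not (0.80 and 0.60, adjusted p 0.135 and 0.279). Of the 7, 4 had a positive change in WT and 5 in cKO, and 2 were called in each, *Actc1* and *Actn2*. The others, none of them called, were *Nkx2-5* (-0.82), *Ryr2* (-0.65) and *Ttn* (-0.29) in WT and *Ryr2* (-0.31) and *Nkx2-5* (-0.018) in cKO. Of 5 tested smooth muscle markers 3 were called higher in cKO hearts, *Tagln* (2.65), *Cnn1* (1.57) and *Acta2* (1.04), while *Smtn* (-0.54) and *Myocd* (-0.64) were negative and not called. The sum of the list went from 2856 to 4973 FPKM at E8.5 to 8535 to 9095 FPKM at E9.5. In WT hearts 0 of 5 were called, with a median of -0.45 and a sum of 2499 to 3333 FPKM at E8.5 and 3535 to 4901 FPKM at E9.5. *Myh11*, the smooth muscle heavy chain, did not pass the filter and lay between 0.11 and 0.78 FPKM over the libraries. Which cells made *Tagln*, *Cnn1* and *Acta2* cannot be told from whole hearts. *Acta1* was called higher in cKO (1.58) and not in WT hearts (0.73).

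Markers of other cells also differed between the stages. The yolk sac endoderm markers had a median of 1.63 in WT, with 5 of 6 positive and *Afp* (4.45) and *Trf* (2.99) called higher, and of 0.35 in cKO hearts, with 5 of 6 positive and 0 called, and their sum was 743 to 6724 FPKM at E8.5 and 4269 to 6679 FPKM at E9.5. Of 6 primitive erythroid markers 1 was called higher in each genotype, *Hbb-y* (3.42 in WT and 4.33 in cKO), and 3 were called lower in WT and 0 in cKO hearts. In each genotype 2 of these 6 had a positive change, with a median of -1.28 in WT and -0.30 in cKO hearts. Of 4 tested epicardial markers *Upk3b* was called higher in both (3.15 and 1.59), but the list did not rise as a whole. Its changes were positive in 2 of 4 in WT (median 0.25) and in 1 of 4 in cKO hearts (median -0.20), where *Aldh1a2* was at -0.93 and -1.55. Of 6 decidual markers, 2 were called lower in WT, *Prl8a2* (-7.6) and *Prl3c1* (-3.76), and 0 in cKO hearts, and the sum of the 6 was 21.05 to 5181 FPKM at E8.5 and 10.8 to 21.9 FPKM at E9.5. Of 3 tested macrophage and neutrophil markers *S100a8* (-6.75) and *Cd68* (-1.88) were called lower in WT and *S100a8* (-4.61) in cKO hearts. Of 6 endothelial and endocardial markers 0 were called in WT (median -0.52) and 1 was called lower in cKO hearts (median 0.086), with a sum of 45.9 to 68.9 FPKM at E8.5 and 43.7 to 70.99 FPKM at E9.5. None of the markers in these lists was at 0 in all libraries, and the part of any marker list in the members' changes was not tested.

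Ratios within a library, which do not depend on a factor applied to a whole library, were compared between the 4 E9.5 and the 4 E8.5 libraries, with both genotypes at each stage. They were not computed after quantile normalization or correction for GC content.

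The ratio of *Myl2* to *Myl7*, the ventricular against the atrial regulatory light chain, was 0.0509 and 0.0595 in the WT pair and 0.0656 and 0.0368 in the cKO pair at E8.5, then 0.340 and 0.704 in WT and 0.210 and 0.374 in cKO at E9.5. No E9.5 library overlapped with an E8.5 library, and the ratio was 7.11-fold higher at E9.5 (log2 difference 2.83, two-sided exact permutation p 0.0286, the smallest that 4 against 4 libraries allow). Benjamini-Hochberg adjustment over the 5 ratios gave 0.0714, which did not pass 0.05.

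The ratio of *Myl2* to *Tnnt2* lay between 0.322 and 1.46 at E8.5 and between 3.26 and 5.63 at E9.5. It was 6.16-fold higher at E9.5 (exact permutation p 0.0286, adjusted over the 5 ratios 0.0714). So *Myl2* was higher at E9.5 also per unit of cardiac troponin T transcript, in 4 of 4 libraries. Without E9.5 WT replicate 2 the exact permutation p of this ratio was 0.0571, although the stages still did not overlap. At E9.5 it read 4.08 and 5.63 in WT and 3.26 and 3.83 in cKO hearts, a mean log2 difference of -0.44 (-0.21 without E9.5 WT replicate 2). Both cKO libraries lay below both WT libraries, but 2 against 2 libraries allow no exact permutation p under 0.333.

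For *Myl7* to *Tnnt2* the ratio was 8.73 to 22.2 at E8.5 and 8.0 to 15.5 at E9.5, with overlapping stages (log2 difference -0.21, exact permutation p 0.571, the same after adjustment). Leaving out E8.5 cKO replicate 1 turned the difference to 0.056. For the essential light chains, *Myl3* to *Myl4*, it was 0.294 to 0.473 at E8.5 and 0.389 to 0.710 at E9.5 (log2 difference 0.26, exact permutation p 0.429, adjusted 0.536). That difference was 0.076 without E9.5 WT replicate 2, 0.10 without E8.5 cKO replicate 2, and at most 0.36 with any 1 library left out. The overlap held with the genotypes together. *Myl3* to *Myl4* was 0.449 and 0.473 in the WT pair and 0.436 and 0.294 in the cKO pair at E8.5, then 0.509 and 0.710 in WT and 0.389 and 0.397 in cKO at E9.5. Within WT both E9.5 libraries lay above both E8.5 libraries, and within cKO they overlapped. At each stage both cKO libraries lay below both WT libraries, by a mean log2 difference of -0.36 at E8.5 (-0.078 without E8.5 cKO replicate 2) and -0.61 at E9.5 (-0.37 without E9.5 WT replicate 2), where 2 against 2 libraries allow no exact permutation p under 0.333.

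The heavy chain ratio, *Myh7* to *Myh6*, was 0.555 and 0.509 in the WT pair and 0.624 and 0.340 in the cKO pair at E8.5, then 0.421 and 1.72 in WT and 2.51 and 2.11 in cKO at E9.5. E9.5 WT replicate 1 lay among the E8.5 libraries and the other three E9.5 libraries above them. The log2 difference was 1.5 (exact permutation p 0.114, adjusted 0.190), and without E9.5 WT replicate 1, the library among the E8.5 values, it was 2.07. Between the genotypes at E9.5 the mean log2 ratio was 1.43 higher in cKO. That size rested on E9.5 WT replicate 1, without which it was 0.42, and without E9.5 WT replicate 2 it was 2.45. Both cKO libraries lay above both WT libraries, and the same limit on p holds.

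**Figure D3:**
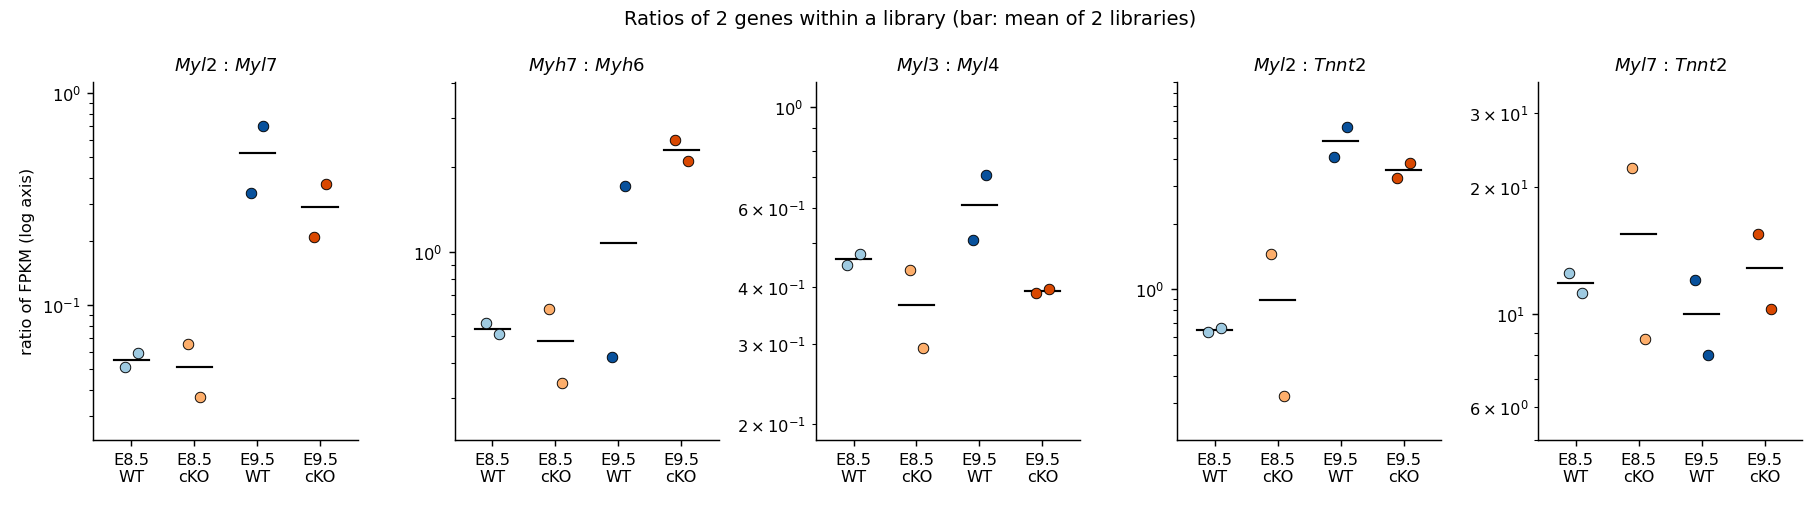
Ratio of FPKM of 2 genes within each library on a log axis, a panel per ratio; points are libraries (replicate 1 left, replicate 2 right) and bars are means of 2 libraries. The stages separate for *Myl2* to *Myl7* (0.0368 to 0.0656 against 0.210 to 0.704) and *Myl2* to *Tnnt2* (0.322 to 1.46 against 3.26 to 5.63) and, with both genotypes together, overlap in the other three panels.

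At E8.5 the question was whether deletion of *Dgcr8* changed the chains in the looping heart tube. By limma 0 of 8 members were called, and 0 had an unadjusted p under 0.05, where 0.00998% of tested genes were called. The largest differences were *Myl7* at 0.56 (95% interval -0.14 to 1.25, adjusted p 0.596), *Myl4* at 0.45 (-0.26 to 1.17, adjusted p 0.615) and *Myl2* at 0.39 (-0.88 to 1.66, adjusted p 0.782), all toward cKO. The intervals of the other five also spanned 0, and the libraries of every member overlapped between the genotypes, so 0 of 8 had all cKO libraries higher, against 2.54% of tested genes. The cKO replicates differed more than 2-fold for *Myl1*, *Myl2*, *Myl3*, *Myl9* and *Myh7*. With E8.5 cKO replicate 2 left out, all 8 members were higher in cKO, and with E8.5 cKO replicate 1 left out 2 of 8 were. Without E8.5 WT replicate 1 it was 2 of 8, and without E8.5 WT replicate 2 it was 8 of 8. E8.5 cKO replicate 1 is the library with the high yolk sac endoderm sum, and all 6 of those markers had a higher mean in E8.5 cKO (log2 difference 0.78 to 1.47, 0 called by limma). Their part in the members' differences was not tested.

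At E9.5, when the chambers are distinct, 0 of 8 members were called by limma between cKO and WT hearts and 0 had an unadjusted p under 0.05, while 0.18% of tested genes were called. The members nevertheless did not all lean the same way. *Myl4*, *Myl7* and *Myl9* had both cKO libraries above both WT libraries, at 0.59 (95% interval -0.12 to 1.30, adjusted p 0.401), 0.48 (-0.21 to 1.18, adjusted p 0.493) and 0.45 (-0.52 to 1.43, adjusted p 0.681). Such a pattern was seen in 21.0% of tested genes, and the count of 3 of 8 is given as a description. *Myh6* was the member with both cKO libraries below both WT libraries, at -0.78 (SE 0.37, 95% interval -1.63 to 0.065, adjusted p 0.353), as were 31.1% of tested genes. Marker lists differed beside these values. The cardiomyocyte markers were positive in 7 of 7 (median 0.44), with the sums given above, and the primitive erythroid markers in 6 of 6 (median 0.97), with a sum of 14429 to 29564 FPKM in WT and 29102 to 39585 FPKM in cKO. The 4 tested epicardial markers were all negative (median -1.25), with a sum of 19.7 to 37.1 FPKM in WT and 8.79 to 9.38 FPKM in cKO. The endothelial and endocardial markers were positive in 5 of 6 (median 0.25, *Pecam1* 1.04, *Tek* -0.53), with a sum of 43.7 to 44.8 FPKM in WT and 68.6 to 70.99 FPKM in cKO. By limma 0 genes of these 4 lists were called, and their part in the members' differences was not tested.

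*Myl2* at -0.32 (-1.59 to 0.95), *Myl3* at -0.02 (-1.0 to 0.95), *Myl1* at 0.22 (-0.79 to 1.24) and *Myh7* at 0.65 (-0.78 to 2.08) overlapped between the genotypes at E9.5. All 4 intervals include more than a 1.5-fold difference in either direction, so such a difference was not detectable with these replicates. *Myh7* turned to -0.24 without E9.5 WT replicate 1 and *Myl2* to 0.11 without E9.5 WT replicate 2. Quantile normalization turned *Myl7* to -0.35. Across genes, the change between genotypes at E9.5 followed transcript GC content as well (Spearman rho 0.405), which was 48.9% to 56.6% for the members and had a median of 50.7% over tested genes. The GC correction again called 0 of 8.

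The difference of the cKO effect between the stages was tested as an interaction. By limma 0 of 8 members were called, where 0.0399% of tested genes were. At an unadjusted p under 0.05 there were 0 of 8 members and 719 of 10018 tested genes. The widest values were *Myh6* at -0.86 (95% interval -2.06 to 0.33, adjusted p 0.766), *Myh7* at 0.78 (-1.24 to 2.79, adjusted p 0.884) and *Myl2* at -0.71 (-2.51 to 1.09, adjusted p 0.879). Thus the rise of *Myh6* with stage, called in WT (1.26) and not in cKO hearts (0.40), was not shown to differ between the genotypes. The stage comparisons and the genotype comparisons share their libraries and are not independent of each other.

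**Figure D4:**
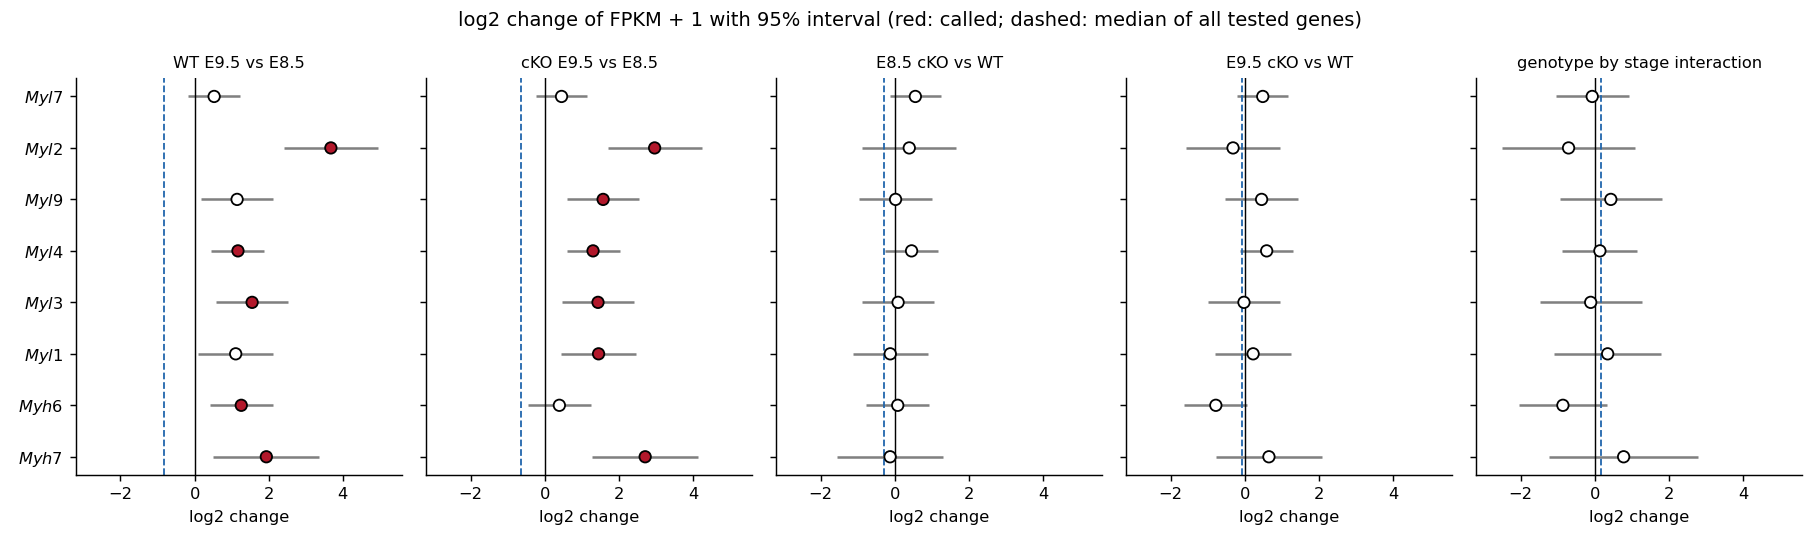
log2 change of FPKM + 1 (horizontal axis) of each member in the 5 comparisons, with 95% intervals of the limma fit; filled points are called and the dashed line is the median of all tested genes. In the stage comparisons 5 and 6 members are called, all to the right of 0, and in the genotype comparisons and the interaction all 8 intervals span 0.

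The values of *Myh6* and *Myh7* carry a limit of their own. The genes lie next to each other on chromosome 14 with 4080 bp between them, and their coding sequences are 91.8% identical over 5803 aligned bases. Of all 50-base windows of the *Myh6* coding sequence 23.8% occur unchanged in *Myh7*, 12.01% of 100-base and 5.82% of 150-base windows. The longest shared run is 245 bases, shown because fragments from it fit both genes equally. It starts at base 4246 of the *Myh6* and 4240 of the *Myh7* coding sequence, counted from the start codon, in the part that encodes the rod:
shared run: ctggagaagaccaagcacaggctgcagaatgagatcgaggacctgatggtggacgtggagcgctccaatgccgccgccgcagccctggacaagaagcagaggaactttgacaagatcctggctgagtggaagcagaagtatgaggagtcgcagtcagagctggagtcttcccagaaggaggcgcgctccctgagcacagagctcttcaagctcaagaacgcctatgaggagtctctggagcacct

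How such fragments were assigned was not given in the sources used here, so the split between *Myh6* and *Myh7* is uncertain to that extent. How such fragments were divided between the genes leaves their sum nearly unchanged, but discarding them or counting them for both would alter it, which was not tested. The summed FPKM of both genes was 572 ± 268 (WT) and 558 ± 140 (cKO) at E8.5 and 1708 ± 574 (WT) and 1626 ± 194 (cKO) at E9.5 (SD, n = 2). The sum was higher at E9.5 in each genotype without overlap, and overlapped between the genotypes at both stages. Within the light chains of the set, no 50-base window was shared between the coding sequences of *Myl2*, *Myl7* and *Myl9* (63.4% to 65.5% identity) or of *Myl1*, *Myl3* and *Myl4* (71.4% to 78.1% identity). Light chains outside the set were not compared in this way.

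*Myh6*, *Myh7* and the related gene *Myh7b* each contain a microRNA in an intron, and these microRNAs are products of the pathway that *Dgcr8* serves. The mature sequences (RefSeq, GRCm38.p6) are shown with the seed, bases 2 to 8, in capitals, since the *Myh6* and *Myh7* microRNAs share the seed UAAGACG, while the one in *Myh7b* has UAAGACU:
miR-208a-3p in *Myh6*: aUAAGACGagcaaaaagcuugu
miR-208b-3p in *Myh7*: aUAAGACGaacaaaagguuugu
miR-499-5p in *Myh7b*: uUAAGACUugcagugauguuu

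Their precursor genes were listed at 0 in all 8 libraries. The libraries were not small RNA libraries, so this gives no level of the mature microRNAs. *Myh7b* lay between 0.21 and 0.92 FPKM.

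Genes whose log2(FPKM + 1) was most like that of a member over the 8 libraries are given as a description, since all such pairs share the libraries and the difference between stages. For *Myl2* they were *Atp5c1*, *Ndrg4* and *Atp5a1* (Pearson r 0.988, 0.985 and 0.977). *Atp5c1* and *Atp5a1* encode subunits of mitochondrial ATP synthase. For *Myl7* they were *Crip2*, *Crip1* and *Tnnc1*, the cardiac troponin C gene (r 0.949, 0.944 and 0.942), and for *Myl9* they were *Cox6a2*, *Crtap* and *Arhgdia* (r 0.993, 0.992 and 0.980). For *Myh6* they were mitochondrial respiratory components, *Atp5k*, *Ndufab1* and *Uqcr10* (r 0.946, 0.932 and 0.920).

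The gene most like *Myh7* was *Mhrt* (r 0.986), a long non-coding RNA antisense to it, followed by *S1pr1* (r 0.980) and *Hspb7* (r 0.973). *Mhrt* (chromosome 14, 54968787 to 54974349) shares 3662 bases with the *Myh7* locus. *Mhrt* read 10.97 and 13.4 FPKM in the WT pair and 11.6 and 8.15 in the cKO pair at E8.5, then 17.4 and 39.0 in WT and 39.7 and 37.7 in cKO at E9.5. E9.5 WT replicate 1 was the lowest of the E9.5 libraries for both genes. Whether fragments were counted by strand was not given in the sources used here, and without strand the reads of *Mhrt* and *Myh7* in the shared stretch cannot be told apart.

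The 250 bases before the start site were read for 7 of the 8 members from RefSeq (GRCm38.p6), where a RefSeq start lay within 50 bp of the start in the table; the RefSeq starts of *Myl2* lay at least 7791 bp away and were not used. Matches to the CArG box, the pattern bound by serum response factor, were present in 3 of the 7 (*Myl7*, *Myl3* and *Myl9*), and in 1.467% of all 32851 promoter windows of that length. Both strands were searched. The stretches that hold these matches are shown 5′ to 3′ up to the base before the start, with the CArG box in capitals:
*Myl7*, chr11:5898783-5898902, minus strand: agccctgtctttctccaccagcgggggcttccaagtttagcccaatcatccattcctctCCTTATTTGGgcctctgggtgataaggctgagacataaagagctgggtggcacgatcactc
*Myl3*, chr9:110763498-110763677, plus strand: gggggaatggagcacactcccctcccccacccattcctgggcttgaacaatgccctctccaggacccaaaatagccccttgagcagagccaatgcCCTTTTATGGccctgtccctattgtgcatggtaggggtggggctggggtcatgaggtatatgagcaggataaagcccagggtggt
*Myl9*, chr2:156775284-156775463, plus strand: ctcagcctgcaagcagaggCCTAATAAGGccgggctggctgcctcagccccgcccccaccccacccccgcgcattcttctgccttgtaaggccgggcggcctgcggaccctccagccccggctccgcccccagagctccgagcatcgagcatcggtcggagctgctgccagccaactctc

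The box lay 51, 75 and 151 bases before the start of *Myl7*, *Myl3* and *Myl9*. Of the other patterns searched, the M-CAT element CATTCC was in 4 of 7 windows (12.64% of all windows) and GATA sites (GATA after A or T and before A or G) in 3 of 7 (26.54%). TATAAA was in 1 of 7 (12.37%), and neither the MEF2 site (2.919%) nor TNAAGTG, the core bound by *Nkx2-5* protein (10.06%), was in any. Matches in the members' windows did not overlap each other. The 3 genes with a CArG box did not share a stage call: *Myl3* was called in both genotypes, *Myl9* in cKO only and *Myl7* in neither. *Srf* itself, the gene of serum response factor, was called lower at E9.5 in WT (log2 change -1.51, limma adjusted p 0.013), by -0.68 relative to the median gene.

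Other genes of the myosin machinery were followed with lists. Of 10 muscle myosin heavy chains 2 passed the filter, *Myh6* and *Myh7*, and the other eight stayed below 1 FPKM in all libraries. The non-muscle heavy chains *Myh9* and *Myh10* were not called with stage or genotype. Among light chains outside the set, 4 were tested: 0 were called in WT and 2 in cKO hearts with stage, *Myl6* (0.96, limma adjusted p 0.045) and *Myl12a* (0.77, adjusted p 0.041), which serve smooth muscle and non-muscle myosin, where 2.05% of all tested genes were called higher. Over these 4 the median was -0.26 (WT) and 0.26 (cKO).

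The counts of called genes in the next lists stand beside 46.7% of all tested genes called lower with stage in WT and 28.5% in cKO hearts, and 1.4% and 2.05% called higher. In every list the share called lower was below those for all genes, so the counts called lower are no result about the lists. Of 5 tested myosin light chain kinase and phosphatase genes, 2 were called lower with stage in WT and 0 in cKO hearts: *Ppp1r14a*, an inhibitor of the phosphatase (-2.02, limma adjusted p 0.011), and the kinase gene *Rock1* (-1.01, adjusted p 0.033). Of 11 tested myosin binding proteins, assembly factors and chaperones, 0 were called higher and 2 lower in WT, *Trim54* (-1.94) and the myosin chaperone *Unc45a* (-1.13). In cKO hearts 2 were called higher, *Mybphl* (2.23) and the cardiac myosin binding protein gene *Mybpc3* (1.78), and 1 lower, *Trim54* (-1.59). *Mybphl* had 29.8 and 18.2 FPKM in WT, against 90.7 and 93.5 FPKM in cKO hearts, at E9.5, a difference of 1.94 that was not called (adjusted p 0.213).

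Of 21 tested regulators of chamber and heavy chain genes, 7 were called lower with stage in WT and 3 in cKO hearts, and 0 were called higher. Those with the widest change in WT were *Mef2c* (-2.50, limma adjusted p 0.014), *Purb* (-1.75, adjusted p 0.018), *Tbx20* (-1.67, adjusted p 0.026) and *Srf*. In cKO hearts they were *Mef2c* (-1.83), *Tbx20* (-1.71) and *Purb* (-1.43). *Mef2c* and *Tbx20* encode transcription factors of the heart. The list had a median of -0.86 (WT) and -0.75 (cKO), beside -0.84 and -0.64 over all tested genes. No gene of these 6 lists was called between the genotypes at E8.5 or E9.5. At an unadjusted p under 0.05 there were 3 of 43 tested list genes outside the set at E8.5 and 5 of 43 at E9.5, where 7.81% and 15.7% of all tested genes were.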

How the data were processed

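Heart RNA-seq of both genotypes and stages was analysed from the FPKM values that the authors calculated and deposited, 8 columns, all used (0 left out). cDNA from total RNA was amplified by Smart-seq2 (labelled SMARTer Ultra Low) and run on a HiSeq2500, and the submitters' processing notes name BWA. The program behind the FPKM values, their treatment of strand and of shared fragments, and the absolute depth were not given in the sources used here. No intervals or floors based on counts could therefore be given. The study names mm9, but 91.7% of 9515 matched genes started within 1000 bp of their GRCm38 start, and positions are given on GRCm38.

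Of each of 285 repeated symbols, the entry highest on average was used. Values were tested as log2(FPKM + 1), where the pseudocount of 1 understates changes of low genes, with limma 3.58.1 in R 4.3.3, with a mean-variance trend, two-sided and Benjamini-Hochberg adjusted over the 10018 genes that averaged 1 FPKM or more. The study names an unpaired t-test for its experiments in general and uses 1.5-fold limits, but its text does not state which test gave the bulk calls. Here limma was used with a 1.5-fold limit, because 2 libraries a group support an unpaired t-test poorly. Ratios were compared by exact permutation tests. Coding sequences came from GENCODE transcripts, used without coordinates, and promoters and microRNAs from RefSeq.

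The members and gene lists were chosen with earlier results of these data known. Named genes are the 8 members, *Dgcr8*, *Tnnt2*, *Actc1*, the 3 genes most correlated with each of 5 members, called list members (at most 4 a list, those with the widest change) and microRNA genes inside myosin genes. *Prl8a2*, *Acta1*, *Myh7b*, *Myh9*, *Myh10* and the markers named with their values were named from the lists after their values were seen. Alternatives were another pseudocount, no filter, 3 scalings, the 2 groups alone, no trend, a replicate block, each library left out and, added later, a correction for GC content.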

Additional observations from a re-analysis of the deposited data

How the results depend on the processing

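No scaling, filter, fit or left-out library made limma call a member between genotypes or in the interaction, so those counts stayed at 0. The called members in WT hearts with stage, 5 of 8, became 1 with no filter on low values, 0 with quantile normalization and 8 with median-ratio scaling, and 0 to 7 with a library left out, where 4 to 196 of all tested genes were called higher (140 with all libraries). In cKO hearts, 6 of 8 became 1 with no filter, 0 with quantile normalization and 3 with the 2 groups alone, and 0 to 6 with a library left out, where 1 to 417 were (205 with all libraries). The cause was not tested, except that a group left with 1 library is assumed to vary like the others. Every stage change stayed positive except that of *Myl7* under quantile normalization (-0.34 in WT and -0.0094 in cKO).

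Replicate numbers showed no pairing over all tested genes: correlations of deviations between same-numbered libraries ran from -0.12 to 0.19. Whether such libraries shared a litter or a preparation is not in the labels, and these correlations cannot decide it. A replicate block gave 5 and 4 called members with stage, and permutation within replicate number, where no p can be below 0.0556, gave that p for *Myl2* to *Myl7* (log2 difference 2.83) and *Myl2* to *Tnnt2* (2.62). With libraries left out the log2 differences were 2.27 to 3.0 for *Myl2* to *Tnnt2*, 1.22 to 2.07 for *Myh7* to *Myh6*, 0.076 to 0.36 for *Myl3* to *Myl4* and -0.39 to 0.056 for *Myl7* to *Tnnt2*.

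Genotype changes that were not called turned sign as follows. At E8.5, median-ratio scaling gave 0.21 for *Myh7* and 0.22 for *Myl1*, quantile normalization 0.14 for *Myh7*, -0.68 for *Myl7* and -0.054 for *Myl9*, and a common sum over loci of at least 300 bp -0.016 for *Myh6*, -0.0060 for *Myl3* and -0.074 for *Myl9*. With libraries left out, *Myh6* ran from -0.44 to 0.60, *Myl2* from -0.28 to 1.06, *Myl3* from -0.56 to 0.74, *Myl9* from -0.65 to 0.70, *Myh7* from -0.68 to 0.43 and *Myl1* from -0.72 to 0.47. At E9.5, median-ratio scaling gave 0.075 for *Myl3* and quantile normalization -0.35 for *Myl7*. With libraries left out, *Myh7* ran from -0.24 to 1.55, *Myl2* from -0.74 to 0.11, *Myl3* from -0.15 to 0.11 and *Myl1* from -0.094 to 0.54. In the interaction, *Myl4* was -0.11 with median-ratio scaling and -0.14 with GC correction, alone or with the replicate block, and *Myl7* was 0.33 with quantile normalization and 0.027 with the common sum. With libraries left out, *Myl3* ran from -0.77 to 0.54, *Myl7* from -0.48 to 0.34, *Myl4* from -0.23 to 0.50, *Myl1* from -0.25 to 0.94, *Myl9* from -0.24 to 1.10 and *Myh7* from -0.12 to 1.67. With 2 libraries a group and unknown absolute depth, differences of the size of these ranges were not detectable.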
